A study of Drosophila melanogaster with 2 samples.

Results

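The regions described here were 763 binding peaks of the tagged protein CG8216 in Drosophila melanogaster prepupae whose summit, the position of strongest enrichment, lay between genes and near a start site. A peak was taken when its summit lay in no annotated gene and 501 to 5000 bp from the nearest annotated transcription start site (TSS), with transposable elements left out of the gene models. They stood beside 5181 other reproducible peaks and made up 12.8% of the whole list (exact 95% interval 12 to 13.7%). The rule used position alone, so it used no signal, sequence or replicate value; orientation to the flanking genes is itself a matter of position and is read against the bases that meet the same rule. Of the other peaks, 1723 had a summit within 500 bp of a start site, 1923 lay inside a gene 501 to 5000 bp from a start site, 1085 lay deeper inside genes and 450 lay between genes more than 5000 bp from any start site.

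The study was a chromatin immunoprecipitation (ChIP-seq) of whole prepupae, males and females pooled, from a stable transgenic line that carries CG8216 (also named spab) with GFP fused to its C terminus. The sample descriptions name an anti-GFP antibody, while the antibody field names spab; the chromatin was sonicated to 200 to 800 bp. Both libraries, labelled biological replicates 1 and 2, belonged to 1 group, came from the same line and carried the tagged gene, so there was no condition to compare. The labels give the age as 24 days, which is long for a prepupa and may be an error of unit, and they name neither the promoter that drives the fusion nor the number of animals, and because whole animals were used, the cells that carry each site cannot be told apart.

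DNA between genes carries much of the regulatory sequence of the fly: promoter-proximal elements and enhancers bind transcription factors and act on start sites that may lie upstream or downstream of them. At a gap between divergent genes both neighbours start at the gap, at a tandem gap 1 neighbour starts and the other ends there, and at a convergent gap both end there. The prepupa is the stage at which pulses of the steroid ecdysone end larval life and start metamorphosis, with death of larval tissues, growth of adult structures and a change of cuticle.

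The windows below show what the DNA at these summits looked like. They are 6 members, each with 200 bases around the summit on the plus strand of dm6, 5′ to 3′, from the RefSeq Release 6 genome. Capitals mark every match, on either strand, to the word CAGTGTA, to CAGTGCA and to CACTGAG (on the other strand TACACTG for the first and TGCACTG for the second and CTCAGTG for the last). The words share the core CAGTG, read on 1 strand or the other, and can overlap. The strongest member stands upstream of CG43389 (chr3L:3246418-3246617) and holds 2 copies of CAGTGCA; the second strongest lies between COX7AL2 and CG31668 (chr2L:2202320-2202519) and holds no match. A member upstream of the Notch-responsive gene E(spl)malpha-BFM (chr3R:26008980-26009179) holds 1. The last 3 each hold 2 copies of CAGTGTA or CAGTGCA within 100 bp of the summit, the highest number, which 21 members reach; they are among the 6 of these with the highest signal. They lie between CG3149 and lncRNA:CR42794 (chrX:5696436-5696635), between lncRNA:CR43883 and the splicing factor gene Sf3b3 (chr3L:821961-822160), and between H15, a T-box gene, and lncRNA:CR43713 (chr2L:5426959-5427158).
CG43389 member: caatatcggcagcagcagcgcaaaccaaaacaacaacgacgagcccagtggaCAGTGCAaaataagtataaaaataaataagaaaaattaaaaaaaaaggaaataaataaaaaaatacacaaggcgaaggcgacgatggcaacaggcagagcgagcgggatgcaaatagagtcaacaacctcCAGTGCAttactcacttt
CG31668 member: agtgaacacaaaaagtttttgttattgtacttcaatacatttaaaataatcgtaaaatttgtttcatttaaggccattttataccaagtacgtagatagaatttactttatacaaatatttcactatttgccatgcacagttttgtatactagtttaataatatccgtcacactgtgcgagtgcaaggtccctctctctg
E(spl)malpha-BFM member: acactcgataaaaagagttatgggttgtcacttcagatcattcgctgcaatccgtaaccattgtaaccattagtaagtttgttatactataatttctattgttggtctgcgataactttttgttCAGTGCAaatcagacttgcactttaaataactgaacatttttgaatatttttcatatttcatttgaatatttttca
CG3149 member: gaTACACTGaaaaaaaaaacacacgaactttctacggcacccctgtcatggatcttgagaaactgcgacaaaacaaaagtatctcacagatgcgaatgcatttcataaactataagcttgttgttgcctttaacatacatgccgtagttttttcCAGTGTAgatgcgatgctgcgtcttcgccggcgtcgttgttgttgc
Sf3b3 member: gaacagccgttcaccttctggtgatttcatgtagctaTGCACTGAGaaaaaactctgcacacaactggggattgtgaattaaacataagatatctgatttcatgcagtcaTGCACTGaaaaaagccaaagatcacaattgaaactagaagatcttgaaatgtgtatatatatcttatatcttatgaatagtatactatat
H15 member: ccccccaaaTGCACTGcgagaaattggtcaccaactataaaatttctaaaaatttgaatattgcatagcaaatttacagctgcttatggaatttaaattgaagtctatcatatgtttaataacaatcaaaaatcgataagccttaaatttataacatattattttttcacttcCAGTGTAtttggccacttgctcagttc
The windows range from 30% G and C bases in the E(spl)malpha-BFM member to 42.5% in the CG3149 member. In the CG3149 and H15 windows the matches stand on both sides of the summit and both read outward from it.

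The peak signal is the caller's own enrichment value, whose scale is not given in the sources used here. It was deposited for both libraries together and for each library. For the CG43389 member the pooled signal was 2834, with 1396 in replicate 1 and 1433 in replicate 2, and its summit lay 1497 bp upstream of the start of CG43389. The CG31668 member had a pooled signal of 2458 and replicate signals of 1222 and 1224, and lay 3746 bp from the start site of CG31668, beyond its 3′ end. COX7AL2, on the other side, encodes a subunit-like protein of cytochrome c oxidase. These members, and the third strongest beyond CG43245 (2080, with 1038 and 1059), had nearly equal signal in both replicates.

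The next members of the 12 strongest had somewhat larger differences between replicates. The member 708 bp upstream of lncRNA:CR44713 had 809.2 in replicate 1 and 933.9 in replicate 2, while that 1534 bp upstream of CG17746 had 856.8 and 692.8, so neither library was always the higher. The member between Gbs-70E, a gene for a glycogen-targeting subunit of protein phosphatase 1, and CG34039 had 644 and 762.4, and it lay in a divergent gap 2084 bp upstream of Gbs-70E. The E(spl)malpha-BFM member had 677.9 and 705.8 and lay 1813 bp upstream of that gene, in a divergent gap shared with lncRNA:CR45039.

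Not all of the strongest members lay upstream of a neighbour. The member between Sol1 and the cytochrome P450 gene Cyp9f2 (pooled 1387, with 666.3 and 730) sat in a convergent gap of 437 bp, so both neighbours end there. Its nearest start site, 1289 bp away, was that of the DNA ligase gene DNAlig3, which is not one of the genes that border the gap. Members between lncRNA:CR45935 and lncRNA:CR45937 (1365) and between CG18404 and lncRNA:CR46113 (1247) were also in convergent gaps. The remaining strong members stood 591 bp upstream of CG12268 next to GluProRS, the gene of the glutamyl-prolyl-tRNA synthetase (1251), and 2389 bp upstream of nw, a gene for a C-type lectin (1272). All 12 were matched in both replicates.

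Over all members, the pooled signal ran from 150 to 2834 with a median of 262.9 (quartiles 195 and 443.2). The other 5181 reproducible peaks had a median of 280, so the members' median was 0.939 of theirs. Peaks within 500 bp of a start site had a median of 308.2, those inside genes at the same distances 272.9, and intergenic peaks farther away 269.5; the quartiles of these groups overlapped widely. With the peaks ranked by signal and cut into 5 equal bins, members made up 10.5% of the strongest bin and 13% of the weakest, with the highest share, 14.5%, in the bin next to the weakest. In the list of 30000 pooled peaks and background made before the reproducibility threshold, 4765 met the same rule, or 15.9%.

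A matching summit within 100 bp was present in both replicate lists for 729 of 763 members, 95.5% (exact 95% interval 93.8 to 96.9%), beside 94.6% over all reproducible peaks. Of the rest, 17 were matched in replicate 1 only, 15 in replicate 2 only and 2 in neither. Replicate 1 was the lower in 501 of the matched members and the higher in 228, with a median log2 ratio of replicate 1 to replicate 2 of -0.15 (SD 0.44, 729 peaks); over all reproducible peaks it was -0.16. The rank correlation between replicates across the 729 members was 0.846 (Spearman) and that of log signal 0.873 (Pearson); these peaks share the same pair of libraries and were selected as reproducible between them. With a matching distance of 50 bp the share fell to 80.1%.

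**Figure D1:**
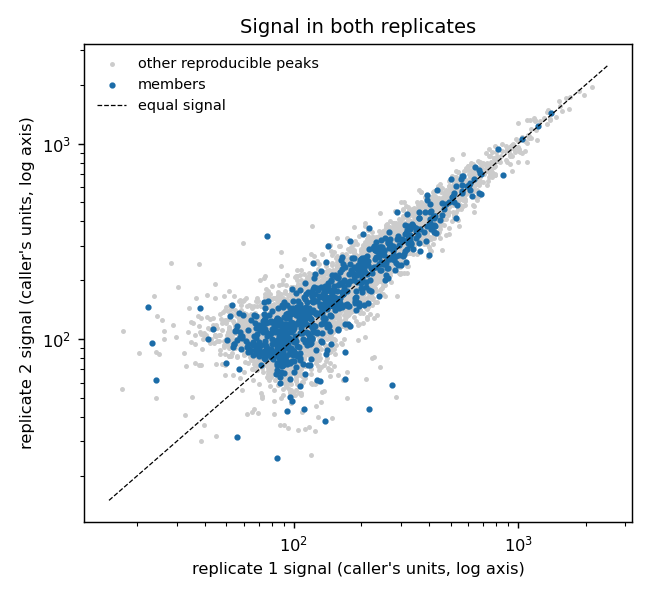
Peak signal in replicate 1 (x axis) and replicate 2 (y axis), both in the caller's units on log axes, for the 729 members matched in both (blue) and the other matched reproducible peaks (grey). Members follow the dashed line of equal signal, lie more often above it than below, and spread most at low signal.

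By distance, members spanned nearly the whole range that the rule allows, from 504 to 4989 bp with a median of 2015 bp (quartiles 1151 and 3396). Of the members, 19.8% lay 501 to 1000 bp from the start site, where 17.3% of the bases that meet the rule lie. The share 1 to 2 kb away was 29.8% beside 27.9% of bases, and 2 to 3 kb away it was 18.3% beside 22.3%. Beyond that, 18.9% lay at 3 to 4 kb and 13.2% at 4 to 5 kb, beside 17.9% and 14.7% of bases. Median signal in these bins, from near to far, was 265.2, 296.7, 243.3, 251.7 and 244.9, with overlapping quartiles.

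Members just inside the limits of the rule are set here beside summits just outside. Just inside the inner limit, a member 504 bp from the start of Eip75B, a nuclear receptor gene of the ecdysone response, had a signal of 376.2 (185.6 and 200.2 in the replicates). A member 507 bp from dap, a gene for a cyclin-dependent kinase inhibitor, had 171.4. Just outside it, intergenic summits 497 bp from nerfin-1 and 498 bp from lncRNA:CR44713 had 149.7 and 264.6. The nerfin-1 summit was near the lowest signal of the list, 149.5, and had no match in replicate 2. The summit near lncRNA:CR44713 shared its peak interval with the strong member 708 bp from the same start site (1763). At the outer limit, members 4985 bp from lncRNA:CR46197 and 4989 bp from lncRNA:CR44863 had 605.3 and 175.3, and summits at 5011 bp from dally, a glypican gene, and 5012 bp from Tollo, a Toll-related receptor gene, had 342.6 and 402.3.

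Most members lay upstream of the nearest start site. This held for 525 of 763, 68.8% (exact 95% interval 65.4 to 72.1%), while 64.1% of the bases that meet the rule do so, a ratio of 1.07. The excess passed an exact two-sided binomial test against the share of bases (adjusted p = 0.0262, Benjamini-Hochberg over 4 tests). It did not when 1 summit was kept per chain of summits within 500 bp of each other (67.5%, same exact test, adjusted p = 0.253). The other 238 members lay beyond the 3′ end of the gene whose start site was nearest.

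The arrangement of the flanking genes was close to that of the bases. Divergent gaps held 220 members (28.8% beside 26.8% of bases, adjusted p = 0.41), tandem gaps 390 (51.1% beside 52.7%, adjusted p = 0.513) and convergent gaps 153 (20.1% beside 20.5%, adjusted p = 0.788, all by exact binomial tests). With protein-coding genes as the only gene models, divergent gaps held 36.6% of the members chosen that way and 31.1% of bases (exact binomial test, adjusted p = 0.00465). In tandem gaps, 281 of 390 members were upstream of the nearest start site. In convergent gaps, 24 of 153 were, the nearest start site then belonging to a gene farther out. Median signal was 275 in divergent, 252.9 in tandem and 274.5 in convergent gaps; it was 272.3 for members upstream and 252 for those beyond a 3′ end.

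**Figure D2:**
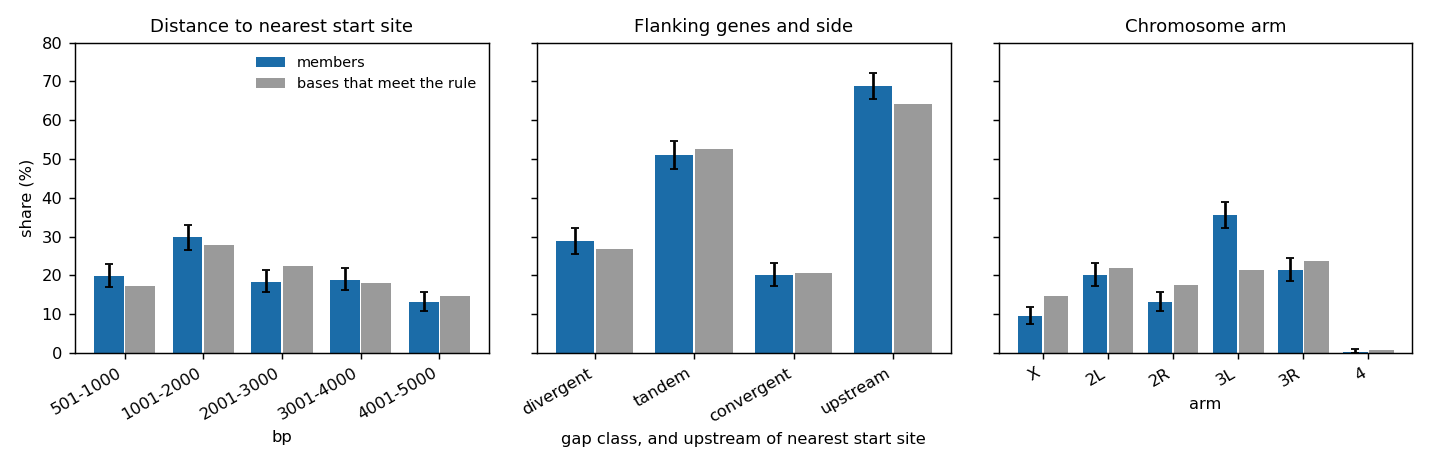
Share of the 763 members (blue, with exact 95% intervals) and of the bases that meet the same rule (grey) by distance to the nearest start site in bp, by arrangement of the flanking genes with the share upstream, and by chromosome arm. Arm 3L stands out, with 35.5% of members on 21.4% of bases.

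By chromosome arm, 3L carried 271 members, 35.5% (exact 95% interval 32.1 to 39%), on 21.4% of the bases that meet the rule; over all reproducible peaks 23.9% lay on 3L. In the strongest peaks of replicate 1 and of replicate 2 taken alone, 35.4% and 34.9% of the members lay on 3L, and among the relaxed pooled peaks that meet the rule 27.1% did. The X held 9.57% of members and 14.6% of bases, 2L 20.1% and 22%, 2R 13.2% and 17.5%, and 3R 21.4% and 23.8%; chromosome 4 held 2 members. The 271 members of 3L lay in 164 gaps, so they did not come from a single locus. The megabases with most members were 3L from 11 to 12 Mb with 36 members in 17 gaps and 3L from 0 to 1 Mb with 35 in 16 gaps, holding 4.72% and 4.59% of members on 1.19% and 0.896% of the windows that meet the rule. The median signal on 3L was 273.5.

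Some gaps held several members, and the number expected from gap length was not worked out. They lay in 499 of the 6377 gaps with bases that meet the rule (7.82%), with 1 member in 338 gaps and more than 1 in 161. The fullest gap, 8416 bp between lncRNA:CR45632 and the gustatory receptor gene Gr93a on 3R, held 7 members with signals of 153.2 to 485.6. A further 5 gaps held 6 members each, of which the 2 with the highest summed signal are given here. The 18664 bp gap between the ends of CG18404 and lncRNA:CR46113 held 6, and the 2 outermost, beside each gene end, were the strongest at 1247 and 1235. The 32964 bp gap between an isoleucine tRNA gene (tRNA:Ile-TAT-1-2) and CG13898 held 6 with signals of 172.3 to 832.3, again 3 near each gene, since the rule leaves out the middle of so long a gap. In all, 637 members had no other reproducible summit chained to them, and 33 shared their peak interval with another summit. The intervals of 111 members (14.5%) overlapped that of another reproducible peak.

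**Figure D3:**
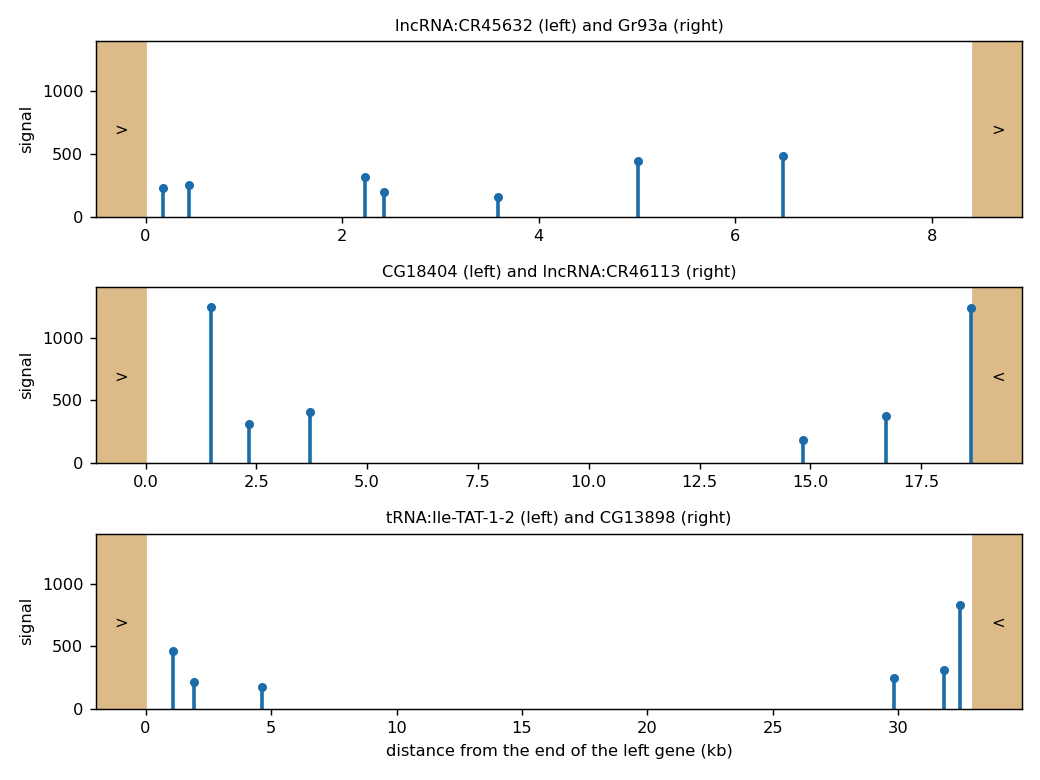
Members in 3 gaps, the 1 with 7 members and, of the 5 gaps with 6, the 2 with the highest summed signal, by distance from the end of the left gene in kb (x axis) and pooled signal in the caller's units (y axis). Brown blocks are the flanking genes with arrows for their strand; the outermost members of the middle gap reach 1247 and 1235, and the long gaps are empty in the middle, which lies beyond the rule's limit.

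The nearest start site belonged to a protein-coding gene for 464 members (60.8% beside 67.4% of bases), to a non-coding RNA gene for 272 (35.6%, exact 95% interval 32.2 to 39.2%, beside 28.3% of bases), and to a tRNA gene for 22 (2.88% beside 1.46%). Of the members, 316 had protein-coding genes on both sides, 321 on 1 side and 126 on neither. The flanking genes were 913 distinct genes, 608 of them protein-coding and 280 non-coding RNA genes.

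Those 608 were 4.36% of the 13945 protein-coding genes and 8.13% of the 7479 that border a gap with bases meeting the rule, the background against which the gene groups below are read. Of the 608, 121 (19.9%, exact 95% interval 16.8 to 23.3%) also had a reproducible summit within 500 bp of a start site. That was the case for 10.9% of all protein-coding genes and for 10.6% of the 6871 that border such a gap but flank no member. Genes are not independent replicates, and no test was made of this difference.

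Of 32 genes of the ecdysone response, 8 flanked a member, which is 32% of the 25 that border a gap with bases meeting the rule. Gaps beside them held 11 members on 98450 bases, or 11.2 per 100 kb, beside 4.38 per 100 kb for gaps that border any protein-coding gene. Of the 8 genes, hid, Eip63E, ImpE2, Eip75B and rpr lie on 3L, the arm with 35.5% of members on 21.4% of bases. The strongest members beside hid, Eip75B and rpr lie between 18 and 19 Mb of 3L, which held 2.75% of members on 1.37% of windows. The part of arm and locus in this density was not tested. hid, a cell death gene active in the removal of larval tissues, had 3 members on its 5′ side, the strongest with a signal of 837.3 (423.2 and 415.1 in the replicates). This member lay 7368 bp from hid and nearer to the start of lncRNA:CR45234, at 3163 bp. E23, a gene for an ABC transporter, had a member 1573 bp from its 5′ end with 544.9 (242.8 and 294.6), nearer to the start of CG8838 at 1244 bp. The divergent genes Eip63E, a cyclin-dependent kinase gene, and ImpE2, an ecdysone-inducible gene of imaginal discs, shared a gap whose stronger member had 409. The other flanking genes of the group were Eip75B, the cell death gene rpr (253.1, 4961 bp upstream) and the nuclear receptor genes Hr3 and Hr38. The Hr38 member (178.6, with 89.75 and 103.4) lay 1674 bp upstream. The Hr3 member (207.8) had 84.22 in replicate 1 and 24.7 in replicate 2, the lowest replicate 2 value of any member, and lay beyond the 3′ end of Hr3, 565 bp from the start of CG34221.

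Among 64 signalling ligands and receptors, 11 flanked a member, 30.6% of the 36 that border such a gap, with 8.88 members per 100 kb. fz, the Frizzled receptor gene of Wnt signalling and planar polarity, had a member 1709 bp upstream with 635.5 (330.5 and 303.3). The genes pyr and ths, which encode the FGF ligands of the Heartless receptor, border the same gap. Its member lay 1398 bp upstream of ths with 529.8 (285.2 and 246), and 29074 bp beyond the 3′ end of pyr. ptc, the Hedgehog receptor gene, had a member of 459.2 on its 5′ side, but 14932 bp away and nearer to CG8635. Also far from the gene were the strongest member beside htl (255.2, 25258 bp) and that beside upd1 (206.4, 11075 bp). daw, an activin-type ligand gene, shared a divergent gap with the synaptotagmin gene Syt1, where the stronger member had 447.3 (185.8 and 260.5).

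Of 62 homeodomain and segmentation genes 12 flanked a member, 20.7% of the 58 that border such a gap, but their gaps are long, and the density in them was 3.71 members per 100 kb, below the 4.38 of all protein-coding gaps. ct, which encodes the homeodomain protein Cut, had 3 members, the strongest 3740 bp upstream with 927.8 (464.4 and 460.8). odd had a member with 673.5 beyond its 3′ end, 10046 bp away and nearer to the start of lncRNA:CR43823 at 3877 bp. dve had 426.7 at 1800 bp upstream. tup had 349.1 at 8998 bp on its 5′ side, nearer to the start of lncRNA:CR44737 at 3352 bp. Of 49 GATA, zinc finger and bHLH genes, 8 flanked a member (20.5% of 39, 5.28 per 100 kb). srp, a GATA factor gene of fat body and blood, had 535.5 at 1460 bp upstream. twi, the mesoderm bHLH gene, had 533.9 beyond its 3′ end and 576 bp from the start of Fatp2. lola had 447.5. The strongest of 3 members beside sens had 249.4 and no match in replicate 1. It lay nearer to the start of CG10222, at 2175 bp.

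Among genes that mark differentiated tissues, the 3 members with the highest signal lay beside cuticle genes. Of 122 cuticle protein genes 9 flanked a member (8.57% of 105, 3.89 per 100 kb), yet 3 of these members were strong. Cpr72Ea had a member 1217 bp upstream with 1073 (515.6 and 555.8), Cpr72Eb 524 bp upstream with 725.8 (351.1 and 371.4), and Cpr51A 3069 bp upstream with 637 (322.3 and 308.7). Cpr72Ea and Cpr72Eb are neighbours between 16 and 17 Mb of 3L, which held 3.67% of members on 0.819% of windows. The part of this locus was not tested. A member between Cpr65Ea and Cpr65Eb had 257.9, below the median of all members, 262.9. Those beside Cpr12A (241), Cpr100A (225.1), Cpr65Ec (214.4) and Cpr97Eb (155) were lower still. Of 29 muscle genes 4 flanked a member (16% of 25, 6.37 per 100 kb). They were bin, a FoxF gene of visceral muscle, with 576, and sls, which encodes a titin-like sarcomere protein, with 541.3. The others were the actin genes Act87E with 326.4, beyond its 3′ end, and Act57B with 261.6.

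Neuronal genes were flanked in 3 of 30 cases, 13% of the 23 that border a gap with bases meeting the rule, with 4.54 members per 100 kb. They were Syt1, the acetylcholine receptor subunit gene nAChRalpha7 with 366.2, and ple, the tyrosine hydroxylase gene, with 162.5. The nAChRalpha7 and ple members lay beyond the 3′ ends of these genes, and the nearest start sites were those of out and CG8519. Glial genes were flanked in 1 of 15 cases (12.5% of 8, 3.1 per 100 kb), nrv2 with 164.8, beyond its 3′ end and nearest to the start of nrv1. Of 179 chemoreceptor genes 5 flanked a member, 4.55% of 110, with 2.88 per 100 kb. Gaps beside this list held 15 members, and 11 of these flanked Gr93a. The strongest of them, between Gr93a and Gr93b, had 523.2 pooled and 264 in replicate 2 and no match within 100 bp in replicate 1; Gr89a followed with 210.3 and Or43a with 167.3. Of 92 cytoplasmic ribosomal protein genes 2 flanked a member (4.08% of 49, 2.66 per 100 kb), RpL13 with 318.5 and RpLP0 with 212.5. These members lay 14009 bp beyond the 3′ end of RpL13 and 765 bp beyond that of RpLP0. Their nearest start sites were those of bib and Sfp79B. A summit within 500 bp of a start site was present for 30 of the 92, beside 10.9% of all protein-coding genes. No gene of the fat body (25 genes), antimicrobial peptide (21), heat shock (24) or glue and prepupal secretion (33) lists flanked a member; these genes border few bases that meet the rule, 20232 to 29546 per list.

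The base composition dipped at the summits. The 200 bp around members held 34.5% G and C bases on average, the 200 bp centred 500 bp away 43.4%, and windows of the same length over all bases that meet the rule 40.4%. The summit window was the lower in 601 of 763 members (78.8%). In bins of 20 bp the lowest value, 31.71%, lay directly before the summit. Over all reproducible peaks the mean was 35.9%, so the dip was not particular to members.

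**Figure D4:**
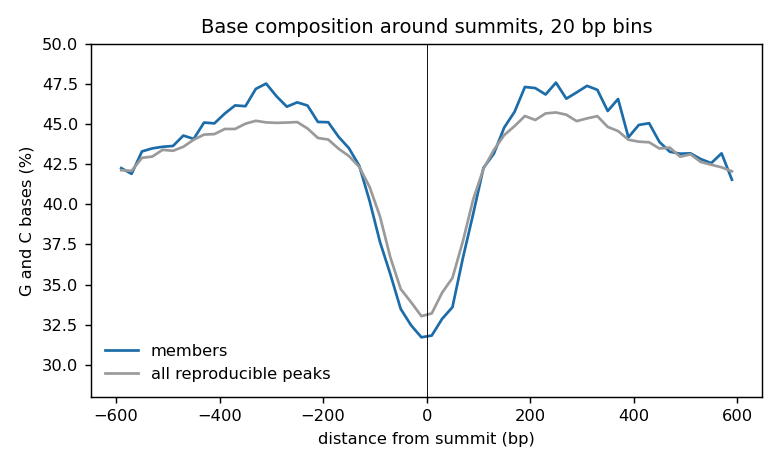
Mean share of G and C bases (y axis, %) in 20 bp bins by distance from the summit (x axis, bp) for the 763 members (blue) and all reproducible peaks (grey). Both lines dip at the summit, to 31.71% in members, and rise on either side.

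Of 16 short words searched on both strands, 6 (37.5%) were more frequent and 2 (12.5%) less frequent in the 200 bp around members than in the 200 bp centred 500 bp away, by exact two-sided McNemar tests with Benjamini-Hochberg adjustment. CAGTGTA was in 8.91% of summit windows (exact 95% interval 6.99 to 11.2%) and 1.31% of flanks (adjusted p = 6.93e-11), and in 1.95% of all windows of that length that meet the rule. CAGTGCA was in 14% and 4.06% (exact test, adjusted p = 9.47e-11), and in 3.5% of all windows. CACTGAG was in 8.13% and 2.23% (exact test, adjusted p = 1.42e-06), and in 1.9% of all windows. Among all reproducible peaks, CAGTGTA was in 7.45% of summit windows, CAGTGCA in 10.6% and CACTGAG in 6.71%, so their presence at summits was not particular to members. These words were listed with earlier results of these data known and are not independent evidence. Where the window was narrowed to 100 bp, none of the 3 passed (ratios 3.2, 1.75 and 1). The positions given below for CAGTGTA and CAGTGCA lie mostly outside that window; those of CACTGAG were not measured.

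The A- and T-rich words AAAAAAA (29% beside 17.6%, adjusted p = 1.01e-06, all windows 18.5%), TATAAAA (16.6% beside 7.86%, adjusted p = 1.42e-06, all windows 10.7%) and TAATTA, a homeodomain-type core (18.2% beside 12.5%, adjusted p = 0.0073, all windows 15.8%) were also more frequent by the exact McNemar test. CACACAC (4.33% beside 8.78%, adjusted p = 0.00157, all windows 6.82%) and the E-box CACGTG (0.917% beside 2.62%, adjusted p = 0.0383, all windows 2.36%) were less frequent by the same exact test. Among all reproducible peaks, AAAAAAA was in 31% of summit windows, TATAAAA in 16.5%, TAATTA in 15.3%, CACACAC in 6.8% and CACGTG in 1.4%. Members were not tested against those peaks. The summit windows of members hold 34.5% and the flanks 43.4% G and C bases, and the part of that difference in these words was not tested. The other 8 words, which were GAGAGAG and AGATAAG and TATCGATA and CAGGTAG and GTGGGAA and TGAGTCA and AGGTCA and CATATG, did not pass the test in either direction. Their shares of all windows that meet the rule ran from 0.397% for TATCGATA to 6.2% for CATATG. The word AGGTCA, the core that nuclear receptors bind, was in 1.97% of summit windows and 3.41% of flanks, and GAGAGAG in 3.15% and 3.8%.

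CAGTGTA or CAGTGCA lay within 200 bp of the summit in 260 members, 34.1% (exact 95% interval 30.7 to 37.6%), beside 10.4% of all 400 bp windows that meet the rule. The share was 31.8% in divergent, 35.6% in tandem and 33.3% in convergent gaps, and 35.4%, 33.9% and 32.9% in the 3 equal bins of members from strongest to weakest. In the other classes it was 21.5% within 500 bp of a start site, 26.7% inside genes at 501 to 5000 bp, 31.7% deeper inside genes and 38.2% in intergenic peaks farther away; these differences were not tested. Within 100 bp of the summit 155 members held 1 copy and 21 held 2.

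The matches lay mostly on 1 side of the summit. Read along the word, 267 of 324 matches (82.4%, exact 95% interval 77.8 to 86.4%) lay downstream of the summit, and these stood a median of 89 bp from it (quartiles 66 and 122). By strand, 142 of 173 forward matches lay to the right and 125 of 151 reverse matches lay to the left of the summit. Among the 58 members with more than 1 match, 34 held a pair that read outward from the summit, as in the CG3149 and H15 windows printed above, and 0 held a pair that read inward on both sides (a share of up to 6.16% by the exact 95% interval). Of the 324 matches, 165 (50.9%, 45.3 to 56.5%) were on the strand of the gene with the nearest start site.

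**Figure D5:**
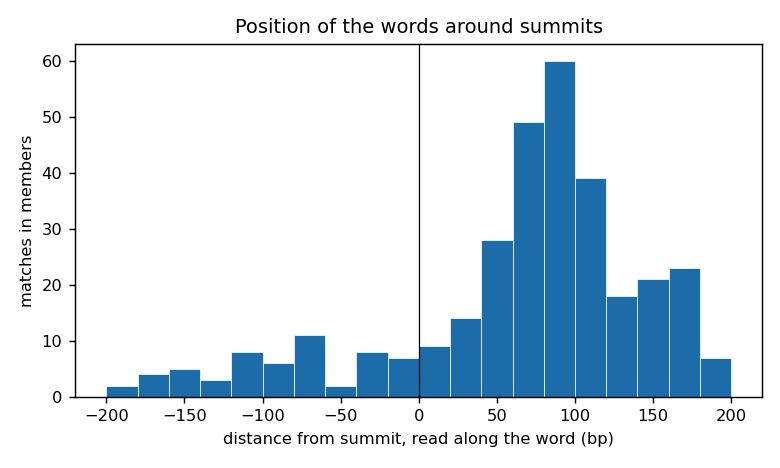
Number of matches to the words CAGTGTA or CAGTGCA in members (y axis) by distance from the summit in bp, read along the strand of the word (x axis, 20 bp bins). The highest bar is 60 matches at 80 to 100 bp downstream, and 267 of 324 matches lie downstream.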

How the data were processed

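Peak lists of a ChIP-seq from 2 biological replicates of 1 group were used, on dm6. The authors deposited a signal value per peak, with no statement of its scale. Per the deposited file list, the relaxed lists hold peaks and background of each replicate, set against a control alignment, and of both replicates pooled, and the reproducible list applies an IDR threshold to them. No source used here names the aligner, the caller or the IDR threshold, and read depth is unknown.

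Members were selected against Ensembl release 115 gene models. Each summit took the signal of the nearest summit within 100 bp in each replicate's list. Orientation was tested against all bases that meet the same rule by exact binomial tests, and words against a window 500 bp from the same summit, on alternating sides, by exact McNemar tests (significance at 0.05 after Benjamini-Hochberg adjustment). Intervals are 95% Clopper-Pearson and cover counting error only; neighbouring peaks are not independent, and 2 libraries allow no test across animals. Words and sequences came from the RefSeq Release 6 genome. The 14 gene lists are described by counts, and members per 100 kb of bases that meet the rule were added after the counts were seen. In the lists, 14 symbols matched through a synonym and 3 did not match.

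The members, lists and words were chosen with earlier results of these data known. Genes named are those flanking the 12 strongest members and 3 gaps with the most members (ties by summed signal), up to 4 per list with the strongest member (others were named after their values were seen), the 2 summits on either side of each distance limit, and members among the 6 with most word copies (ties by signal). Alternatives were each replicate alone, the stronger peaks (above the median rank), 1 summit per chain, protein-coding models, other distance limits, windows, flanks and matching distances. The orientation and word tests were tested on simulated data. Tests ran in SciPy 1.17.1 and statsmodels 0.14.6 under Python 3.11.15, with pandas 2.3.3 and NumPy 2.4.6 for tables and matplotlib 3.10.9 for figures.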

Additional observations from a re-analysis of the deposited data

How the results depend on the processing

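The share upstream of the nearest start site was 69.7 to 70.7% with the strongest peaks of either replicate alone and past the threshold in both. It was not past it with 1 summit per chain (67.5%, adjusted p = 0.253) or by the nearest gene end (56.6% beside 53.5% of bases, unadjusted p = 0.095, exact binomial tests); the cause was not tested. Divergent gaps passed with protein-coding models alone (36.6%, exact binomial test, adjusted p = 0.00465). The 2972 strongest peaks held 362 members, since they are fewer peaks. Replicate matching was 80.1% within 50 bp and 98.7% within 250 bp. With 100 bp windows 5 of 16 words passed in place of 8; either replicate alone gave 6 to 8. CACGTG and also TAATTA and CACACAC each lost the call under 2 alternatives, and AGGTCA gained it with 1 summit per chain (ratio 0.387, exact McNemar test, adjusted p = 0.0123). Counting only the gene with the nearest start site left 5 ecdysone, 5 homeodomain, 5 GATA, zinc finger and bHLH, 7 signalling and 0 neuronal, glial or ribosomal protein genes, beside 2.45% of all protein-coding genes. No result past the threshold reversed under these alternatives. Read depth is unknown, so no interval covers it. No paired comparison of conditions was possible because there is 1 group.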
